A study of Mus musculus with 27 samples.

Results

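The 10 genes described here act in ferroptosis, an iron-dependent form of cell death driven by peroxidised membrane lipids. They are Gpx4, Gpx1, Slc7a11, Slc3a2, Cbs, Gss, Chac1, Aifm2, Acsl4 and Lpcat3. They were chosen by name, and all 10 were found among the 22552 genes of the deposited RNA table. Liver RNA came from male C57B/6J mice fed diets with different amounts of carbonyl iron, with 3 RNA libraries per diet. The standard-iron diet (SID) held 50 mg per kg and was given from 6 weeks of age. The high-iron diet (HID) held 8.3 g per kg and was also started at 6 weeks. The low-iron diet (LID) held 0.9 mg per kg and was started at 3 weeks, so its effect and that of the earlier start cannot be told apart.

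Levels are FPKM (fragments scaled to transcript length and library size), with 1 value for a gene in each diet. The deposited values are not split by library, so no value carries an SD and no library can be looked at alone. The column taken as HID is headed GFE and was assigned by elimination. Tfrc, the transferrin receptor gene whose mRNA is stabilised when iron is scarce, stood at 30.4 FPKM in LID, 4.56 in SID and 1.85 in HID. Read depth is unknown and the labels do not say how long each diet was fed or whether each library came from a separate mouse. The 14 hepatocyte marker genes quantified in every diet had summed levels of 30048 FPKM in SID, 25954 in HID and 23378 in LID. The 15th listed, Serpina1a, was quantified in HID alone and is left out.

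Ferroptosis begins when iron catalyses the oxidation of polyunsaturated fatty acids held in membrane phospholipids. Acsl4 and Lpcat3 encode the enzymes that activate these fatty acids and place them into phospholipids. Gpx4 encodes the selenium-containing peroxidase that reduces lipid peroxides inside membranes, using glutathione made from cystine or from methionine-derived cysteine. Aifm2 encodes FSP1, which protects membranes by reducing ubiquinone without glutathione. Hepatocytes store much of the body's iron and also make much of its glutathione.

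Levels per transcript length spanned a wide range, with the antioxidant enzymes at the top and the cystine transporter at the bottom. In SID, Gpx1 ranked 52nd of all genes in the table and Gpx4 167th, while Slc7a11 ranked 15689th. No more than 2.10-fold separated the highest and lowest diet for any of the 9 genes above 1 FPKM, and Gss had that widest spread. SID was the highest diet for 6 of these 9 genes: Gpx4, Gpx1, Slc3a2, Cbs, Gss and Chac1. Acsl4 was the only 1 of the 9 with its lowest value in SID.

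**Figure D1:**
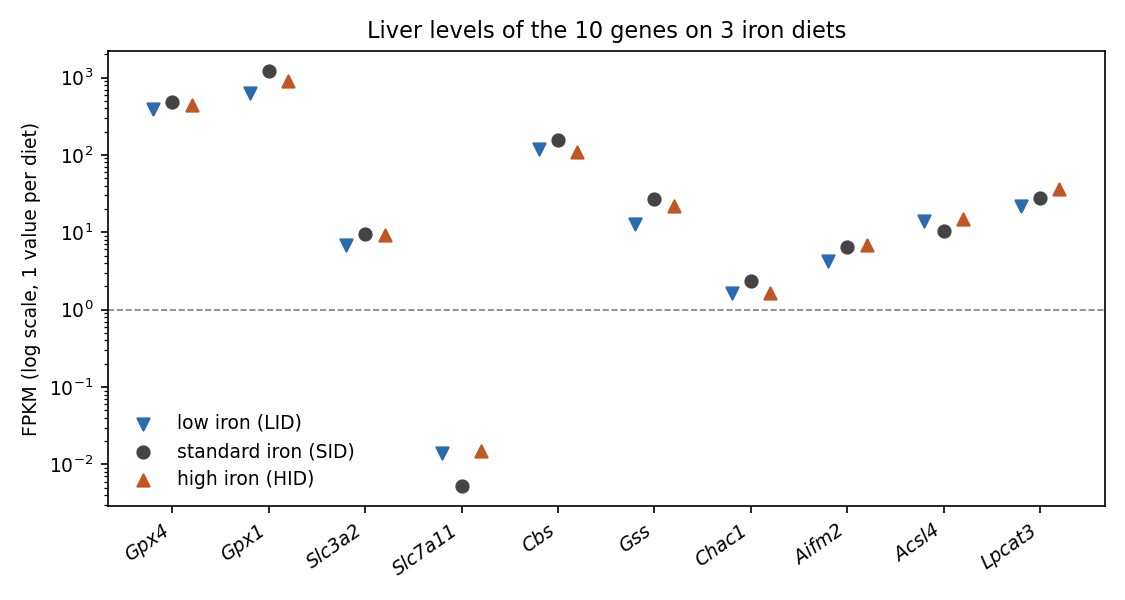
FPKM of each gene in LID, SID and HID on a log axis, 1 combined value per diet with no error bar available. The dashed line marks 1 FPKM, and Slc7a11 alone lies below it in every diet.

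A gene was tested where its mean over the diets reached 1 FPKM and its deposited adjusted p was below 1, and it was called where that adjusted p was below 0.05. Of the 10 genes, 9 were tested in every comparison, and Slc7a11 was not. Gpx1 and Gss fell in LID against SID, 2 of the 9, beside 4.88% of all tested genes called in either direction and 3.31% called lower. Gss was higher in HID than in LID, 1 of the 9, beside 3.94% of tested genes called and 2.1% called higher. None of the 9 was called in HID against SID, beside 6.66% of all tested genes. In that comparison 2 of the 9, Acsl4 and Cbs, had an unadjusted p below 0.05 in the authors' deposited table, and no other tool could be run on 1 value per diet. The same count, called genes included, was 3 of 9 in LID against SID and 2 of 9 in HID against LID. No share over all tested genes was computed at that unadjusted threshold.

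Differences are given on the log2(FPKM + 1) scale relative to the median of all tested genes, which was −0.07 in HID against SID, −0.13 in LID against SID and 0.06 in HID against LID. In LID against SID, 8 of the 9 genes lay below that median, and their own median difference was −0.29. In HID against SID 5 of 9 lay below it, with a median of −0.08. In HID against LID 7 of 9 lay above it, with a median of 0.34. The comparisons share diets, so these 3 medians are not independent of each other.

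**Figure D2:**
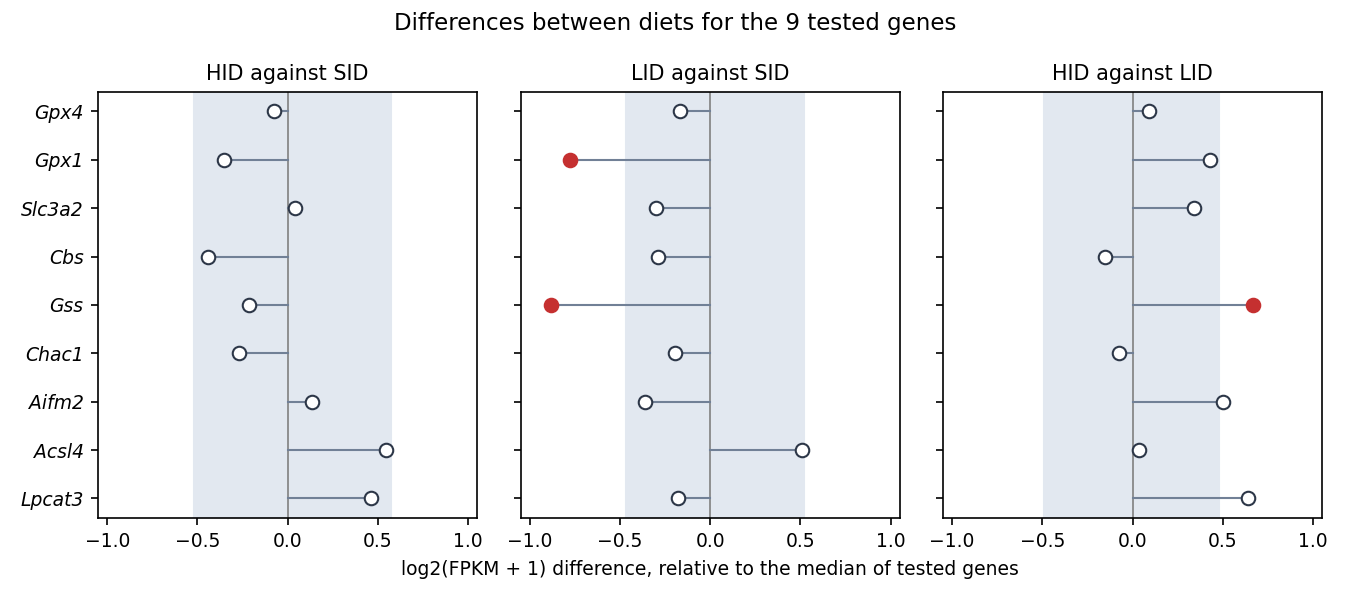
Difference of each of the 9 tested genes between diets on the log2(FPKM + 1) scale, relative to the median of tested genes, with filled red points for called genes and the grey band for the central 90% of all tested genes. Gpx1 and Gss lie left of the band in LID against SID at −0.78 and −0.88, and in HID against LID Gss, Lpcat3 and Aifm2 lie right of it.

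Gpx1, the abundant peroxidase of cytosol and mitochondria that removes hydrogen peroxide, stood at 637 FPKM in LID, 1199 in SID and 895 in HID. Both extremes of the diet were below the standard, and LID was the lowest. Without centring on the median, the FPKM in LID was 53.1% of that in SID. Relative to the median of tested genes, the fall was −0.78 on the log2 scale (adjusted p = 0.0446 in the authors' deposited table). This p is close to the threshold, and the call ends at an adjusted p below 0.01. HID was at 74.6% of SID, which was not called (adjusted p = 0.602 in the authors' deposited table). HID and LID differed by 0.43 and were not called apart (adjusted p = 0.621 in the authors' deposited table).

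Gpx4, the enzyme whose loss by itself triggers ferroptosis, stood at 397 FPKM in LID, 489 in SID and 442 in HID. The 3 values lay closer together than those of any other member above 1 FPKM, with 1.23-fold between the highest and the lowest. LID was at 81.1% of SID (adjusted p = 0.715 in the authors' deposited table) and HID at 90.3% (adjusted p = 0.908). Genes within 2-fold of Gpx4's mean level were called in LID against SID only from a difference of 0.61 upwards and Gpx4 differed by −0.17. No spread between libraries was available to say how small a difference could be detected. RefSeq lists 2 Gpx4 pseudogenes, Gpx4-ps1 and Gpx4-ps2, and nothing read here says how the authors counted reads that match more than 1 copy. Gpx4 differed by 0.09 between HID and LID, which turned to −0.017 when scaled to the upper quartile. Within a diet, Gpx1 was 2.45 times as high as Gpx4 in SID, 2.02 times in HID and 1.60 times in LID.

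Around these 2 genes, 29 of 33 other peroxidase, thioredoxin and aldehyde-clearing genes were tested. With HID set against SID, 2 rose and 1 fell (2.82% of all tested genes were called higher and 3.84% lower), with a median difference of −0.18. Txnip, which encodes an inhibitor of thioredoxin, rose from 36.6 to 70.8 FPKM (adjusted p = 0.00436 in the authors' deposited table). Aldh1b1, a mitochondrial aldehyde dehydrogenase gene, rose from 15.1 to 28.5 FPKM (adjusted p = 0.00123 in the authors' deposited table). Aldh3a2, whose product oxidises fatty aldehydes, fell from 48.4 to 30.0 FPKM (adjusted p = 0.0419 in the authors' deposited table). In LID against SID none of the 29 was called, with 11 at an unadjusted p below 0.05, and the median was again −0.18. With HID set against LID, 3 of 29 were higher and 0 lower, beside 2.1% of all tested genes called higher. These were Txnip, Aldh1b1 and Gsta4, a transferase that conjugates the lipid peroxidation product hydroxynonenal. Gsta4 stood at 44.2 FPKM in HID against 25.2 in LID.

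Gpx1 and Gpx4 both contain selenocysteine, and the wider set of selenoprotein and selenocysteine-synthesis genes had 18 of 22 listed symbols in the table. With LID set against SID, 1 of 16 tested genes was called (6.25%), beside 4.88% of all tested genes. Sepx1, which encodes the methionine sulphoxide reductase MsrB1, fell from 361 to 215 FPKM (adjusted p = 0.0242 in the authors' deposited table). In HID against SID 1 of 15 was called (6.67%), beside 6.66% of all tested genes. Dio1, the liver deiodinase gene, fell from 71.2 to 40.6 FPKM (adjusted p = 0.00565 in the authors' deposited table). In HID against LID none of 15 was called, with 1 at an unadjusted p below 0.05.

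Cysteine for glutathione enters by cystine import or by transsulphuration, and Slc7a11 and Slc3a2 encode the light and heavy chains of the cystine and glutamate exchanger. Slc7a11 was listed at 0.0139 FPKM in LID, 0.00533 in SID and 0.0147 in HID. The authors' table marked it as not tested, and all 3 values are too low to be ordered. Slc3a2, which also pairs with other amino acid transporters, stood at 6.82 FPKM in LID, 9.56 in SID and 9.35 in HID. HID and SID were nearly equal and LID was at 71.4% of SID (unadjusted p = 0.0434 and adjusted p = 0.321 in the authors' deposited table), which was not called. The difference of Slc3a2 between HID and SID, 0.04, turned to −0.029 without centring on the median.

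Cbs, the first enzyme of transsulphuration, stood far above the transporter at 118 FPKM in LID, 158 in SID and 110 in HID. Both diets lay below SID, and the groups were in the order HID, LID, SID. HID was at 70.0% of SID (unadjusted p = 0.0346, adjusted p = 0.284 in the authors' deposited table) and LID at 74.6% (adjusted p = 0.497). Neither was called. At the level of Cbs, genes were called in HID against SID from a difference of 0.61 upwards, and Cbs differed by −0.44. Cth, the second enzyme of the route, stood at 134 FPKM in LID, 174 in SID and 169 in HID.

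Of 26 other genes of transsulphuration and the methionine cycle, 24 were tested. With HID set against SID, 1 rose and 3 fell, beside 2.82% of all tested genes called higher and 3.84% lower. The median was −0.19. Mat2a, a synthase of the methyl donor S-adenosylmethionine, rose from 16.9 to 31.0 FPKM (adjusted p = 0.0023 in the authors' deposited table). Csad, which diverts cysteine towards taurine, fell from 94.3 to 31.4 FPKM (adjusted p = 1.95e-10 in the authors' deposited table). Ethe1, a mitochondrial enzyme of sulphide oxidation, fell from 36.1 to 20.8 FPKM (adjusted p = 0.0074 in the authors' deposited table). In LID against SID 0 of 24 rose and 2 fell (8.33%), beside 1.57% of all tested genes called higher and 3.31% called lower. These were Csad (94.3 to 55.3 FPKM) and Gamt, the creatine-forming methyltransferase gene (156 to 99.5 FPKM). Mat2a and Sqrdl, the sulphide quinone reductase gene (130 against 73.1 FPKM), were higher in HID than in LID, and Csad was among the genes that were lower, beside 1.84% of all tested genes called lower.

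Gss encodes glutathione synthetase, which adds glycine in the last step of glutathione synthesis. It stood at 12.8 FPKM in LID, 26.9 in SID and 21.9 in HID. LID was the lowest by a wide margin, and HID lay closer to SID than to LID. Without centring on the median, the FPKM in LID was 47.6% of that in SID (adjusted p = 3.04e-05 in the authors' deposited table). Relative to the median of tested genes, the fall was −0.88 on the log2 scale. Only 0.802% of all tested genes had a lower value in that comparison. HID exceeded LID by 0.67 on that scale. Without centring, the ratio of HID to LID in FPKM was 1.71 (adjusted p = 0.0435 in the authors' deposited table). With adjustment within that comparison alone the HID and LID difference had p = 0.0535, computed from the p-values of the authors' deposited table, and was no longer called. HID was at 81.5% of SID, a difference not called (adjusted p = 0.618 in the authors' deposited table). In RefSeq Gss overlaps Gssos2, a non-coding gene, and reads of Gss and Gssos2 cannot be told apart where the strand was not used.

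Gpx1 and Gss, the 2 genes that fell in LID, are shown over the 250 bases before each gene start (RefSeq, build GRCm38.p6). The methylation libraries of the series were made with HpaII and MspI, which both cut at CCGG, and capitals mark that site. The Gpx1 window lies at chr9:108338830-108339079 on the plus strand and the Gss window at chr2:155592811-155593060 on the minus strand.
Gpx1: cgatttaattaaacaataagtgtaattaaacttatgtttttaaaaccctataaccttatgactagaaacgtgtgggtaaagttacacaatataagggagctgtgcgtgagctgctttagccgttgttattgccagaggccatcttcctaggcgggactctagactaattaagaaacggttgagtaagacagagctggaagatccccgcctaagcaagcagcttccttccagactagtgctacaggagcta
Gss: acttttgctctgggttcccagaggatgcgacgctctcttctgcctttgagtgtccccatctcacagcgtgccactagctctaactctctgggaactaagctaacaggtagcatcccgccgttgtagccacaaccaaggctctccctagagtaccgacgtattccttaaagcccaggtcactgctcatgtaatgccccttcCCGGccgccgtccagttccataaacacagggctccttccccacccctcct
The Gss window held 1 CCGG site, 50 bases before the start, and the Gpx1 window held 0. GC content was 42% in the Gpx1 window and 56% in the Gss window. Of the members' 13 windows 9 held at least 1 such site, and 47.1% of all 32851 windows did. The deposited methylation table covered 48 loci in 10 genes and none of them was in a member, so no methylation value stands beside these promoters.

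The rate-limiting step before Gss is made by a catalytic and a modifier subunit, encoded by Gclc and Gclm. Gclm fell in HID, from 54.0 to 32.9 FPKM (adjusted p = 0.019 in the authors' deposited table), and stood at 38.0 in LID (adjusted p = 0.154). Gclc stood at 38.3 FPKM in LID, 51.3 in SID and 49.7 in HID and was not called in LID against SID (adjusted p = 0.373 in the authors' deposited table). Within a diet, the ratio of Gss to Gclc was 0.524 in SID, 0.441 in HID and 0.334 in LID. The ratio of Gss to Gclm was 0.497 in SID, 0.665 in HID and 0.337 in LID, so in HID it went the other way.

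Gclc and Gclm belong to a list of 22 glutathione synthesis and turnover genes, of which 17 were tested. In HID against SID 3 fell and 0 rose, beside 3.84% of all tested genes called lower, with a median of −0.14. Besides Gclm these were Hagh, a glyoxalase gene that frees glutathione (183 to 109 FPKM, adjusted p = 0.0279 in the authors' deposited table), and Ggt6, a gamma-glutamyltransferase family gene (8.63 to 5.15 FPKM, adjusted p = 0.0347). With LID set against SID, 2 fell and 0 rose, beside 3.31% of all tested genes called lower, with a median of −0.18. They were Slc25a39, the mitochondrial glutathione importer gene (202 to 116 FPKM, adjusted p = 0.016), and Glrx5, a mitochondrial glutaredoxin gene needed for iron-sulphur cluster assembly (103 to 59.8 FPKM, adjusted p = 0.00553 in the authors' deposited table). In HID against LID none of the 17 was called and 0 had an unadjusted p below 0.05.

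Chac1 encodes a cyclotransferase that degrades glutathione and is a known target of ATF4, the transcription factor of the amino acid response. Chac1 stood at 1.66 FPKM in LID, 2.34 in SID and 1.63 in HID. Both extremes lay below SID and nearly level with each other. HID was at 69.8% of SID (adjusted p = 0.564 in the authors' deposited table) and LID at 71.0% (adjusted p = 0.683), and neither was called. Slc7a11 and Slc3a2 are also known ATF4 targets. Of 40 amino acid response and ATF4 target genes, 27 were tested. Trib3, a pseudokinase gene induced by stress, rose in HID from 1.11 to 2.70 FPKM (adjusted p = 0.00395 in the authors' deposited table). Slc6a9, a glycine transporter gene, fell from 6.16 to 3.39 FPKM in HID (adjusted p = 0.00699) and to 3.11 in LID (adjusted p = 0.00237 in the authors' deposited table). No other of the 27 was called in either comparison. The share called was 7.41% in HID against SID and 3.7% in LID against SID, beside 6.66% and 4.88% of all tested genes. Vldlr, a lipoprotein receptor gene of the list at 1.13 FPKM in LID, 0.207 in SID and 0.581 in HID, lay below the filter on low values. Without that filter it is called higher in both diets (adjusted p = 3.15e-06 in LID and 0.0395 in HID in the authors' deposited table). With HID set against LID, none of 27 was called, with 3 at an unadjusted p below 0.05, and the list's medians were −0.13, −0.07 and −0.07 in HID against SID, LID against SID and HID against LID.

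ATF4 and its C/EBP partners bind an element with the core TGATGNAA. The 250 bases before each RefSeq gene start (build GRCm38.p6) were searched on both strands, and 3.45% of 32851 windows held it. All 10 members had at least 1 window, 13 in all, and the element was found in Slc7a11, with 2 copies, and in Chac1, with 1, but not in the Slc3a2 window. The stretches around these copies are shown because they are the members' only matches to the element, and capitals mark the element on either strand. The Slc7a11 stretch lies at chr3:50443633-50443699 on the minus strand and the Chac1 stretch at chr2:119351029-119351076 on the plus strand.
Slc7a11: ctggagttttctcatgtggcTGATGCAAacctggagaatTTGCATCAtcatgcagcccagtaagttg
Chac1: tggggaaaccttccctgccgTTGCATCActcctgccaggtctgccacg
The copies begin 66 and 47 bases before the Slc7a11 start and 193 bases before the Chac1 start. These 2 genes were also the lowest of the 10 in all 3 diets. A second element, the NRF2 motif TGACNNNGC, was present in 10.2% of all windows and in none of the members' windows.

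The glutathione-independent arm rests on Aifm2. It stood at 4.26 FPKM in LID, 6.42 in SID and 6.76 in HID. The order followed dietary iron, with SID and HID close together and LID lower. LID was at 66.4% of SID (adjusted p = 0.44 in the authors' deposited table) and HID at 105% (adjusted p = 0.974). HID was 1.59-fold above LID (adjusted p = 0.407 in the authors' deposited table). None of the 3 was called. The Aifm2 gene overlaps Macroh2a2 in RefSeq, so the same limit on strand applies as for Gss.

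All 24 listed genes of ubiquinone, tetrahydrobiopterin and vitamin K reduction were tested. Nqo1, a quinone reductase gene and a classical NRF2 target, rose in HID from 2.94 to 8.57 FPKM (adjusted p = 9.67e-07 in the authors' deposited table). It was also higher in HID than in LID, where it stood at 3.26 FPKM (adjusted p = 0.000422 in the authors' deposited table). Gchfr, which encodes the feedback regulator of tetrahydrobiopterin synthesis, fell in LID from 184 to 111 FPKM (adjusted p = 0.0128 in the authors' deposited table). The other 22 were not called in any of the 3 comparisons, and the list's medians lay between −0.04 and 0.03. Each comparison thus had 1 of 24 called (4.17%). The share over all tested genes was 6.66% in HID against SID, 4.88% in LID against SID and 3.94% in HID against LID.

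Acsl4 and Lpcat3 supply the lipids that are oxidised. Acsl4, which activates arachidonic and adrenic acid, stood at 13.9 FPKM in LID, 10.5 in SID and 15.0 in HID. Both extremes were above SID. HID was at 143% of SID (unadjusted p = 0.0227 and adjusted p = 0.224 in the authors' deposited table) and LID at 133% (unadjusted p = 0.0538, adjusted p = 0.36). Neither was called. The smallest called differences near the Acsl4 level were 0.51 in HID against SID and 0.46 in LID against SID, and Acsl4 differed by 0.54 and 0.51. In HID against LID it differed by 0.04, and this turned to −0.065 when scaled to the upper quartile.

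Lpcat3, which inserts polyunsaturated fatty acids into phospholipids, stood at 22.2 FPKM in LID, 27.7 in SID and 36.6 in HID. The order followed dietary iron. HID was 1.65-fold above LID (unadjusted p = 0.0166, adjusted p = 0.183 in the authors' deposited table). It was at 132% of SID (adjusted p = 0.529), and LID was at 80.0% of SID (adjusted p = 0.678 in the authors' deposited table). None of these was called. Lpcat3 overlaps Emg1 in RefSeq. The ratio of Acsl4 to Lpcat3 within a diet was 0.379 in SID, 0.409 in HID and 0.628 in LID.

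Of 27 other acyl-CoA synthesis and phospholipid remodelling genes 17 were tested. Called genes numbered 2 of 17 in HID against SID (11.8%), beside 6.66% of all tested genes. They numbered 2 in LID against SID (11.8%), beside 4.88%, and 1 in HID against LID (5.88%), beside 3.94%. Agpat9, an acyltransferase gene of glycerolipid synthesis, rose in HID from 0.440 to 2.08 FPKM (adjusted p = 3.24e-07 in the authors' deposited table) and was higher in HID than in LID (0.571 FPKM, adjusted p = 0.00144). It passed the filter on low values only through HID, the diet in which it is high, so its calls add no support to the list's counts. Agpat2, which makes phosphatidic acid, fell from 98.7 to 52.5 FPKM in HID (adjusted p = 0.000771) and to 61.1 in LID (adjusted p = 0.0218 in the authors' deposited table). Agpat6, another acyltransferase gene of glycerolipid synthesis, fell in LID from 29.8 to 18.5 FPKM (adjusted p = 0.0233 in the authors' deposited table). The list's medians were 0.00, 0.01 and −0.01 in HID against SID, LID against SID and HID against LID.

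Of 21 listed enzymes that can oxidise lipids or make superoxide, and their partners, 10 stayed below 0.5 FPKM in every diet, the lipoxygenase genes Alox5, Alox12 and Alox15 among them. In HID against SID 1 of 10 tested genes rose and 1 fell, beside 2.82% of all tested genes called higher and 3.84% lower. Cybb, the phagocyte oxidase gene, rose from 1.33 to 2.31 FPKM (adjusted p = 0.0365 in the authors' deposited table). Nox4, an oxidase gene that yields hydrogen peroxide, fell in HID by 1.08 on the log2 scale from 10.6 FPKM in SID (adjusted p = 8.88e-08 in the authors' deposited table). Nox4 stood at 7.01 FPKM in LID (adjusted p = 0.0791 in the authors' deposited table against SID). None of the 10 was called in LID against SID or in HID against LID, where 3 and 1 had an unadjusted p below 0.05.

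Of 51 further ferroptosis regulator genes in the table, 47 were tested. Hspb1, a small heat-shock protein gene, fell from 31.1 FPKM in SID to 4.49 in HID and 12.4 in LID (adjusted p = 4.39e-06 for LID in the authors' deposited table, listed as 0 for HID). No other of the 47 was called in HID against SID or in HID against LID, where Hspb1 was lower in HID. The share called was 2.13% in both, beside 6.66% of all tested genes in HID against SID and 3.94% in HID against LID. In LID against SID 3 fell and 0 rose (6.38%), beside 4.88% of all tested genes called. These were Hspb1, Gls2, the liver glutaminase gene (116 to 65.8 FPKM, adjusted p = 0.0191), and Acsf2, an acyl-CoA synthetase family gene (41.7 to 25.4 FPKM, adjusted p = 0.0187 in the authors' deposited table).

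Over the 9 lists together, leaving out the 10 members, 210 genes were tested in LID against SID, of which 12 fell (5.71%) and 0 rose, with Vldlr below the filter and not among them. At an unadjusted p below 0.05, 47 were lower and 11 higher. Direction was taken before centring, where the median of all tested genes was −0.13. No share over all tested genes was computed at the unadjusted threshold, here or for the single lists. For HID against SID, 209 were tested, of which 7 rose (3.35%) and 12 fell (5.74%). With HID set against LID, 7 of 209 were higher (3.35%) and 3 lower (1.44%). Agpat9, above the filter on low values only through HID, is counted among the 7 higher in both comparisons. Its calls add no support to these shares. Over all tested genes the matching shares were 1.57% higher and 3.31% lower in LID against SID, 2.82% and 3.84% in HID against SID, and 2.1% and 1.84% in HID against LID.

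**Figure D3:**
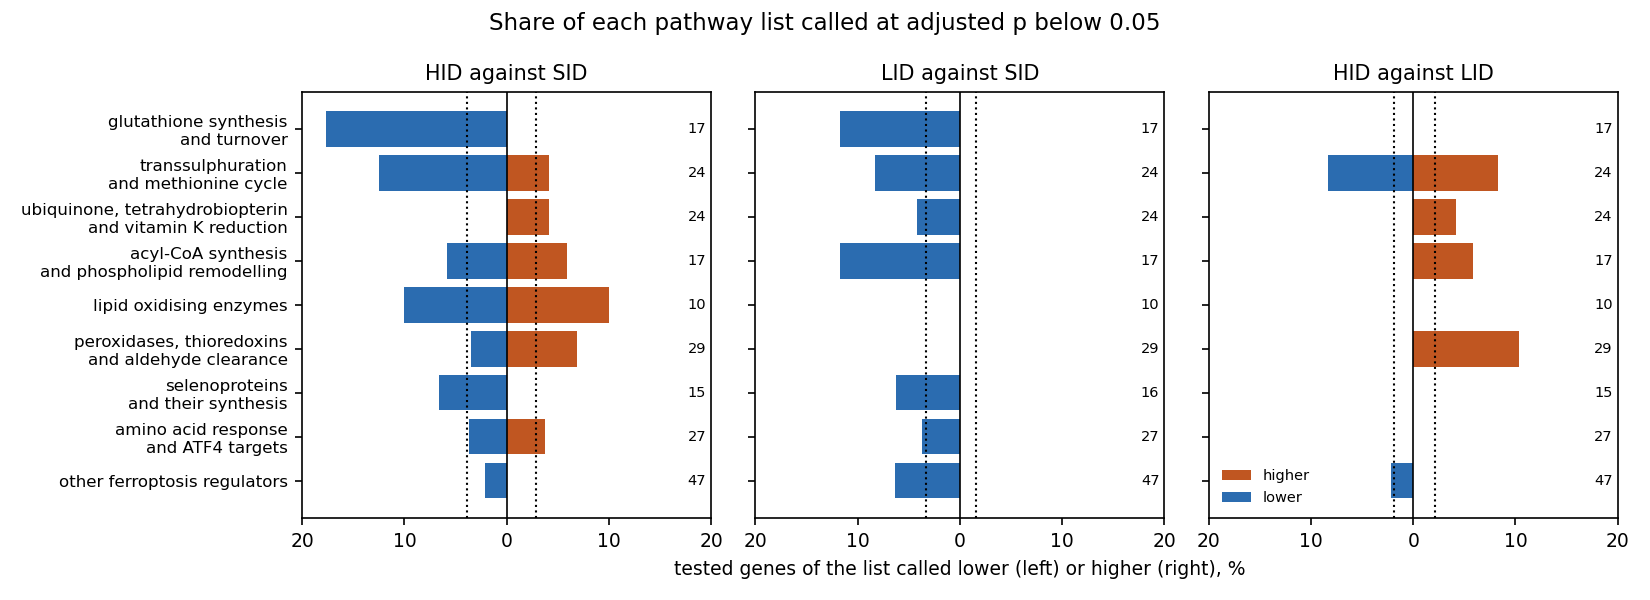
Share of the tested genes of each list that was called higher (right, orange) or lower (left, blue) in each comparison, with the number of tested genes at the right edge of each panel. Dotted lines mark the shares over all tested genes, such as 3.31% lower in LID against SID, where no list has a bar to the right. Agpat9, above the filter on low values only through HID, is counted in its list.

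The members' differences can be read against all genes of like level. Among tested genes within 2-fold of the mean level of Gss, 165 of 2176 were called in LID against SID, with a median size of 0.67 for the called differences, and Gss differed by 0.88 in size. Among the 133 genes within 2-fold of Gpx1, 6 were called, and Gpx1 had the smallest difference of those 6. In HID against LID Gss had the smallest called difference among the 99 called genes near its level. Lpcat3 differed by 0.64 in that comparison, below the 0.67 from which genes near its level were called.

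**Figure D4:**
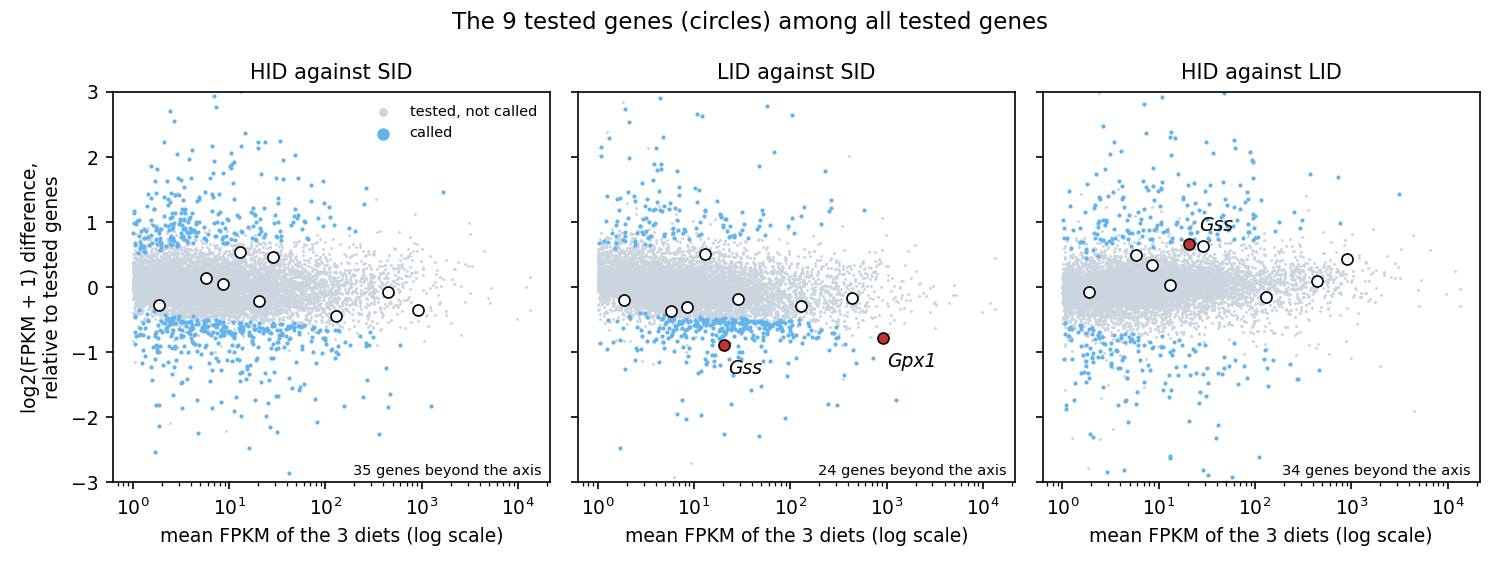
Difference on the log2(FPKM + 1) scale against mean FPKM for every tested gene (grey, or blue where called), with the 9 tested members as circles, filled red where called. Gpx1 and Gss lie below most genes of like level in LID against SID, and no member is filled in HID against SID.

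Markers of other cells moved with the LID and HID comparisons, and fewer cells of a type and less RNA per cell cannot be told apart in whole liver. Of 15 macrophage and Kupffer cell markers, 8 rose in LID and 3 in HID, with summed levels of 218 FPKM in SID, 360 in LID and 328 in HID. The 13 neutrophil markers summed to 11.8 FPKM in SID, 205 in LID and 40.2 in HID, with 5 of 6 tested markers higher in LID, 3 of which passed the filter on low values only through their LID levels. The 12 erythroid markers in the table summed to 803 FPKM in SID, 1128 in LID and 823 in HID, with 3 of 8 higher and 1 lower in LID. Of 14 tested hepatocyte markers 0 were called in LID, with 1 at an unadjusted p below 0.05 and a median of −0.15, and 1 fell in HID. No lymphocyte marker reached the level for testing, and endothelial, stellate and bile duct markers had 2 of 10, 0 of 7 and 0 of 4 called in LID, and 1 of 10, 0 of 7 and 2 of 4 called higher in HID. The bile duct markers higher in HID were Spp1 (25.1 FPKM in SID, 49.0 in HID) and Krt7 (0.596 and 1.75 FPKM, above the filter only through HID), and 3 of 3 tested neutrophil markers were higher in HID too. For erythroid markers in HID, 1 of 7 was higher and 1 lower. Of all tested genes, 4.88% were called in LID against SID and 6.66% in HID against SID. The part of these markers in the differences of the members and of the listed genes was not tested.

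The genes closest to Gpx1 in their pair of differences from SID, by Euclidean distance on the log2 scale over the 3 diets, were Lcat, Reep6 and Slc9a3r1. Lcat stood at 118 FPKM in LID, 221 in SID and 165 in HID, at a distance of 0.0119. Reep6 and Slc9a3r1 lay at distances of 0.0224 and 0.0349. For Gss the closest were Ada (distance 0.0534), Samd1 (0.0611) and Agxt2l1 (0.0742). Ada stood at only 0.344 FPKM in LID, 1.67 in SID and 1.12 in HID, where the pseudocount of 1 shrinks its change, so its likeness to Gss depends on that pseudocount. Agxt2l1 stood at 27.3 FPKM in LID, 53.7 in SID and 45.1 in HID. Within a distance of 0.1 there were 11 of 9547 genes around Gpx1 and 5 around Gss.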

How the data were processed

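The submitters' processing notes name TopHat, Cufflinks 2.2.1 and mouse build mm9. The authors deposited 1 FPKM value per gene for each diet, which had 3 RNA libraries. They also deposited p-values, raw and adjusted, for 3 comparisons. The unit was inferred from the tool and the values. No source read here names the authors' test, and the deposited adjusted values matched a Benjamini-Hochberg adjustment over 34481 tests of all 3 comparisons. The deposited methylation table, with a p-value per locus, was only searched for the members, and its 9 columns per animal were not used.

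With 1 value per diet no fit over libraries could be made, so calls rest on the deposited adjusted p. Python 3.11.15 and pandas 2.3.3 were used, with a pseudocount of 1 FPKM. The calculations were tested on simulated data. Members and lists were chosen with earlier results of these data known. Named genes were the members, up to 4 called genes per list and comparison with the smallest p, the genes closest to called members, and Tfrc. Gclc, Cth, uncalled values of genes called elsewhere, the 3 lipoxygenase genes, Vldlr, Serpina1a, Spp1 and Krt7 were named after their values were seen. Promoter windows are RefSeq sequences of GRCm38.p6, and gene overlaps are by name from the same assembly. Alternatives were other thresholds, filters, pseudocounts and scalings. A called gene of the methionine list is counted but not reported by name here.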

Additional observations from a re-analysis of the deposited data

How the results depend on the processing

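Of 18 recomputed counts of called members, 13 stayed within 1.5 times of the reported count. In LID against SID the count went from 2 to 1 (Gss) at an adjusted p below 0.01. It went to 0 when a log2 difference of at least 1 relative to the median was also required (−0.88 for Gss, −1.01 without centring). In HID against LID it went from 1 to 0 under both of these settings and with adjustment within the comparison (p = 0.0535 for Gss, from the p-values of the authors' deposited table). In HID against SID it was 0 under all 6 settings. The called differences kept their sign under 5 other pseudocounts and scalings, from −0.91 to −0.69 for Gpx1 and from −1.01 to −0.81 for Gss in LID against SID, and from 0.49 to 0.73 for Gss in HID against LID. Of 135 recomputed differences 6 changed sign, and none of them was called. These were Slc3a2 in HID against SID (−0.029 without centring, −0.067 when scaled to the sum without the 10 highest genes), and in HID against LID Gpx4 (−0.017 when scaled to the upper quartile, −0.10 to the sum) and Acsl4 (−0.065 and −0.14). The cause of these moves was not tested beyond the settings' own construction. Of 108 recomputed list counts 19 moved by over 1.5 times, 17 of them with another threshold. No paired analysis was possible because the table holds 1 combined value per diet, and leaving out a replicate was not run for the same reason.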
